A study of Mus musculus with 18 samples.

Results

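Domain boundaries whose coordinate does not fall on a step of 5 kb made up 2094 of the 16231 boundaries on the autosomes, a share of 12.9% (95% Wilson interval 12.4 to 13.4%). They are called off-grid boundaries here, and the other 14137 are called on-grid. Each distinct coordinate at which a domain of the deposited list starts or ends counted once, and it was off-grid when it was not a multiple of 5000 bp. With the X chromosome included, the list held 17433 boundaries. The choice rested on coordinates alone, and no loop, domain size or contact value entered it.

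Micro-C cuts chromatin with micrococcal nuclease, ligates DNA ends that are neighbours in the nucleus and reads the joined pairs to count contacts. The lists come from Micro-C of G1E-ER4 mouse erythroblasts, a cell line of red cell precursors, in a subline labelled LDB1-AID. In this subline the bridging protein LDB1 carries an auxin-inducible degron, a tag through which auxin generally brings about loss of the protein. Of the samples, 9 were untreated and 9 received auxin for 4 h, and both groups carried the LDB1-AID modification. The 20535 loops and 12571 domains on the autosomes were deposited once for the whole series, with no value per sample or treatment, so the lists show neither an effect of auxin nor any sample's depth. Coordinates are those of the mm9 build, which the submitters' processing notes name, and an mm9 gene annotation was not used here.

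A topologically associating domain is a stretch of chromosome whose positions contact one another more often than they contact positions outside it, and a boundary is where such a stretch begins or ends. In mammals many boundaries are bound by CTCF, which stops cohesin as that complex extrudes a chromatin loop, and the stopped complex leaves a loop that spans the domain. Loops can also join enhancers and promoters, and in erythroid cells LDB1 takes part in such contacts together with GATA1 and TAL1. A boundary coordinate in a list is set by the bin size and by any merging of calls as well as by the chromosome itself.

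Off-grid coordinates fell at only 4 places within a 10 kb bin. Of the off-grid boundaries, 795 lay 1666 bp past a multiple of 10 kb and 764 lay 8333 bp past one, and these 1559 are called ternary boundaries here. Another 268 lay 2500 bp past a multiple of 10 kb and 267 lay 7500 bp past one, and these 535 are called quaternary boundaries. The on-grid boundaries were made up of 11485 that lay 5000 bp past a multiple of 10 kb, called bin-centre boundaries, and 2652 at a multiple of 10 kb. No autosomal boundary had any other remainder.

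These places match simple means of bin-centre positions. A mean of 3 bin centres, cut to whole bp, can fall 1666, 5000 or 8333 bp past a multiple of 10 kb, and a mean of 4 can fall 0, 2500, 5000 or 7500 bp past one. A mean of 2 bin centres falls either on a multiple of 10 kb or on a bin centre. The authors' name for the list says that domains were merged, but the lists do not say how many positions entered a coordinate, and whether averaging made these coordinates was not tested. The multiples of 10 kb, which are on-grid by the rule, could arise in the same way, so their values are given beside several of the comparisons below.

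The ends of a domain often shared the coordinate type. Of the domains, 1626 (12.9%) had at least 1 off-grid end, 814 of them at 1 end and 812 at both. Among the 1196 domains with an off-grid start, 67.9% also had an off-grid end, compared with 3.78% of the domains with an on-grid start. There were 1185 domains with a ternary end and 441 with a quaternary end, and 0 domains had both. Third-step ends were paired with another ternary end in 646 domains and with a bin centre in 539 domains. They were paired with a multiple of 10 kb in 0 domains, although 2608 domains without an off-grid end had such an end. Quarter-step ends did occur with multiples of 10 kb, in 139 domains, as well as with bin centres in 136 and with each other in 166.

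**Figure D1:**
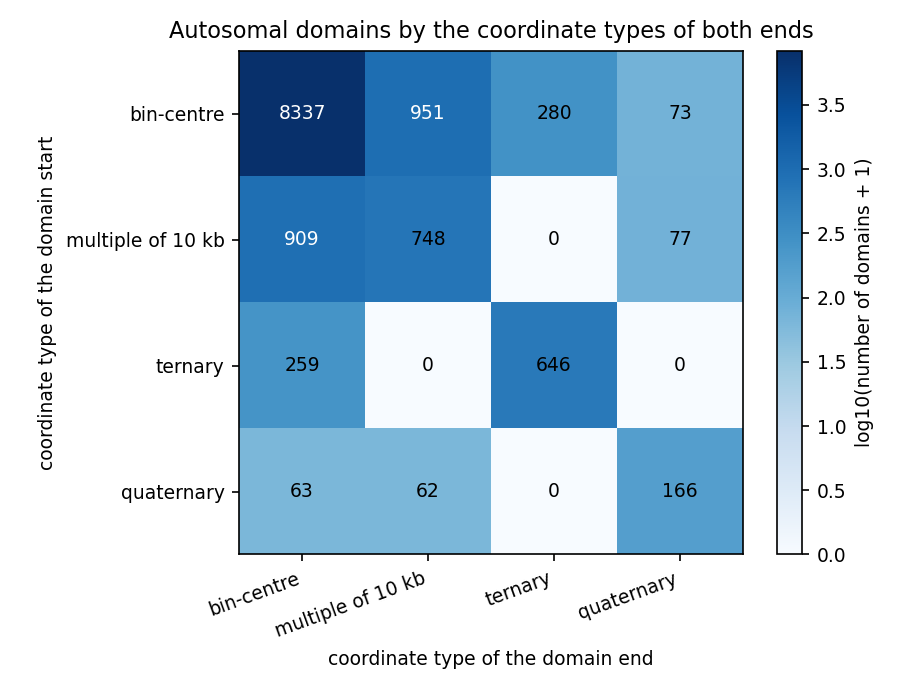
Number of autosomal domains for each combination of coordinate types at the start (rows) and at the end (columns), with the colour on a log10 scale. The 646 domains with 2 ternary ends stand beside empty cells where ternary ends would meet multiples of 10 kb or quaternary ends.

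Off-grid boundaries had loop anchors nearby more often than on-grid boundaries. An anchor is 1 of the 2 places joined by a loop, and it was counted as near when its midpoint lay within 20 kb. Over all autosomal boundaries 42% had a near anchor. The share was 61.0% of the off-grid boundaries (1278 of 2094, 95% Wilson interval 58.9 to 63.1%) and 39.2% of the on-grid boundaries (5545 of 14137, 38.4 to 40.03%). The difference was 21.8 percentage points (95% Newcombe interval 19.6 to 24.0), an interval that covers counting error only, since neighbouring boundaries can share anchors. No replicates stand behind these values, and the spread over the 19 autosomes is given in their place.

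The off-grid share was higher on 19 of 19 autosomes. It ran from 38.6% on chromosome 3 through a median of 60.9% to 69.7% on chromosome 11, and the on-grid share ran from 28.8% on chromosome 4 through a median of 39.4% to 55.6% on chromosome 19. The ranges of both shares therefore overlapped between chromosomes, while within each chromosome the order was the same. The difference within a chromosome was 20.3 ± 5.91 percentage points (SD, n = 19 autosomes), from 4.17 on chromosome 3 to 27.1 on chromosome 1.

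Boundaries at multiples of 10 kb lay between the others. A near anchor was found at 36.6% of the bin-centre boundaries (95% Wilson interval 35.7 to 37.4%), 50.8% of the boundaries at multiples of 10 kb (48.9 to 52.7%), 60.9% of the ternary boundaries (58.4 to 63.3%) and 61.5% of the quaternary boundaries (57.3 to 65.5%). The intervals of the ternary and quaternary shares overlap, and those of the other neighbours in this order do not. Multiples of 10 kb exceeded bin centres on 18 of 19 autosomes, and off-grid boundaries exceeded multiples of 10 kb on 17 of 19. The exceptions to the second order were chromosome 3, with 38.6% of off-grid boundaries against 53.0%, and chromosome 12, with 59.8% against 60%.

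**Figure D2:**
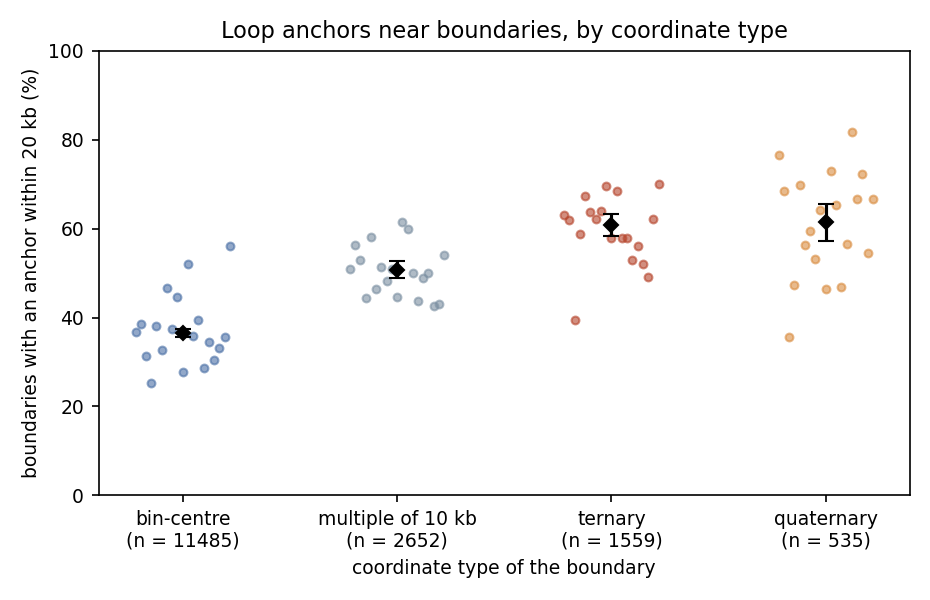
Share of boundaries with an anchor midpoint within 20 kb, in percent, for the 4 coordinate types. Diamonds are the shares over all autosomes with 95% Wilson intervals and points are the 19 single autosomes. The shares step from 36.6% at bin centres to 50.8% at multiples of 10 kb and about 61% at both off-grid types.

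The numbers and distances of the anchors followed the shares. Off-grid boundaries had 1.39 distinct anchors within 20 kb on average and on-grid boundaries 0.859. Anchors were distinct when their midpoints differed. Overlapping anchors were not joined, so a number of anchors is not a number of separate places. At least 2 anchors were found at 38.3% of off-grid and 23.0% of on-grid boundaries, and 4 or more at 11.1% and 6.49%. The median distance to the nearest anchor was 14.2 kb (95% interval from order statistics 13.3 to 15 kb) for off-grid boundaries, with quartiles of 5 and 33.3 kb. For on-grid boundaries the median was 37.5 kb (35 to 37.5 kb), with quartiles of 10 and 370 kb. The groups lay farther apart at the upper quartile than at the lower. Boundaries at multiples of 10 kb had a median of 17.5 kb.

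Anchors took the same sides of off-grid and on-grid boundaries. A loop's left anchor is the one at the lower coordinate, so a loop that starts just inside a domain places its left anchor above the domain start. Left anchors were most frequent 30 kb above an off-grid boundary, at 26.9 per 100 boundaries in a 10 kb step, compared with 5.16 at the mirrored step below it. Right anchors were most frequent 20 kb below an off-grid boundary, at 30.2 per 100, compared with 10.3 at the mirrored step above. The on-grid boundaries had their maxima at 40 kb above, with 15.5 left anchors per 100, and at 20 kb below, with 16.1 right anchors per 100.

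The surroundings of off-grid boundaries also held more anchors. At 80 to 100 kb on either side there were 11.1 left anchors per 100 off-grid boundaries and 7.03 per 100 on-grid boundaries, and for right anchors 9.57 and 5.86. Relative to those distant steps, the maximum was 2.41 times as high for left anchors at off-grid and 2.21 times at on-grid boundaries. For right anchors it was 3.15 and 2.75 times as high. The anchor density around a boundary thus differed between the groups both at the maximum and away from it, and the part of the surrounding density in the near share was not tested.

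**Figure D3:**
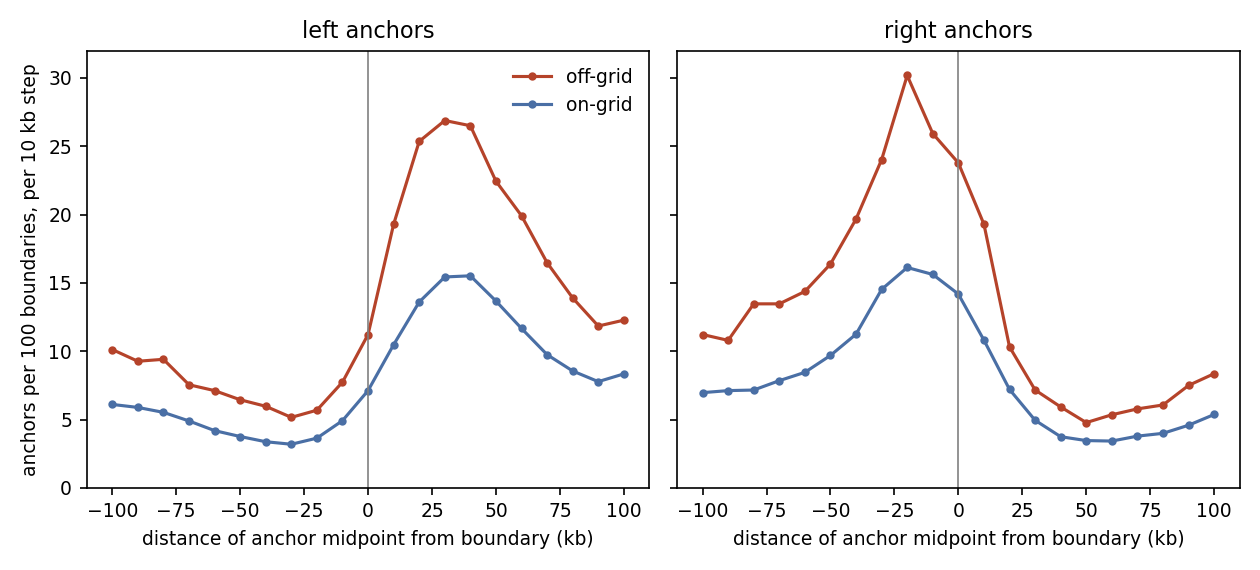
Distinct anchors per 100 boundaries in steps of 10 kb (vertical axis) against the signed distance of the anchor midpoint from the boundary in kb (horizontal axis), for left anchors and right anchors. The off-grid curve lies above the on-grid curve at every step, with maxima of 26.9 and 30.2 against 15.5 and 16.1.

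A boundary flanked by a right anchor below and a left anchor above, each within 60 kb, has loops that end toward it from both sides. This arrangement was found at 26.7% of all autosomal boundaries. It was found at 43.0% of the off-grid boundaries (900, 95% Wilson interval 40.9 to 45.1%) and 24.2% of the on-grid boundaries (23.5 to 24.9%), and it was more frequent at off-grid boundaries on 19 of 19 autosomes. The opposite arrangement, a left anchor below and a right anchor above, was found at 12.2% and 8.01%, higher for off-grid boundaries on 16 of 19 autosomes. The ratio of the off-grid to the on-grid share was 1.77 for the first arrangement and 1.53 for the second.

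The loops that ended near off-grid boundaries resembled those that ended near on-grid boundaries in length. There were 3455 loops with an anchor midpoint within 20 kb of an off-grid boundary, 16.8% of the autosomal loops. Their median span was 225 kb (220 to 230 kb), compared with 220 kb (220 to 230 kb) near on-grid boundaries and 175 kb over all autosomal loops. The same loop could be counted in both groups. Within 10 kb, the nearest neighbour was a bin centre for 833 off-grid boundaries and a multiple of 10 kb for 557. The sets of loops can therefore overlap, and the number of loops in both was not counted. The on-grid set, with 9413 loops, was the larger and so also held loops outside the off-grid set. The similar medians may thus come partly from the same loops.

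Off-grid coordinates were seldom used by several domains. Over all autosomal boundaries 44.2% were used by 2 or more domains. The share was 16.4% of the off-grid boundaries (343, 95% Wilson interval 14.9 to 18.0%) and 48.4% of the on-grid boundaries (47.5 to 49.2%), and it was lower for off-grid boundaries on 19 of 19 autosomes. Among boundaries at multiples of 10 kb the share was 29.4%. Use by 3 or more domains occurred at 1 off-grid boundary (0.0478%) and at 1274 on-grid boundaries (9.01%), against 7.86% of all autosomal boundaries. The off-grid boundaries comprised 856 that were only starts, 899 that were only ends and 339 (16.2%) that were both, compared with 43.9% that were both among the on-grid boundaries.

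The order turned when close coordinates were treated as a single place, but not among places with a single coordinate. Coordinates within 10 kb of one another were joined into loci, which gave 1905 loci that held an off-grid coordinate and 8596 that held none. Of these, 92.0% (95% Wilson interval 90.7 to 93.1%) and 76.2% (75.3 to 77.1%) were used by 2 or more domains. A locus of 2 or more coordinates is used by at least 2 domains by construction, and a locus with an off-grid coordinate held 2.44 coordinates on average against 1.35 in the others. Among loci with 1 coordinate, 58.5% of 369 with an off-grid coordinate and 69.9% of 6797 others were used by 2 or more domains. The turn therefore follows from the number of joined coordinates. The share with a near anchor stayed apart after joining, at 60.1% of loci with an off-grid coordinate and 31.5% of the others. Among loci with 1 coordinate the shares with a near anchor were 57.5% and 29.1%.

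The nearest other boundary was close. It lay at a median of 3.33 kb from an off-grid boundary, with quartiles of 1.67 and 6.67 kb, and at 10 kb from an on-grid boundary, with quartiles of 5 and 70 kb. Distances under 5 kb are possible only where at least 1 of the 2 coordinates is off-grid, so the shortest distances follow from the rule. Within 10 kb, 82.4% of off-grid and 51.9% of on-grid boundaries had another boundary, and the off-grid share was higher on 19 of 19 autosomes. These shares include the distances under 5 kb. The order was the reverse for a nearest boundary over 5 and up to 10 kb away, with 16.0% of off-grid and 21.0% of on-grid boundaries. The median distance for multiples of 10 kb was 5 kb. At the other end of the scale, 7.74% of off-grid and 26.4% of on-grid boundaries had none within 50 kb.

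The close neighbour usually had the opposite role. Of the 1755 off-grid boundaries that were only a start or only an end, 1415 (80.6%, 95% Wilson interval 78.7 to 82.4%) had as nearest neighbour within 10 kb a boundary of the opposite role alone, an end beside a start or a start beside an end. The share was 55.0% (4361 of 7935, 53.9 to 56.1%) among the corresponding on-grid boundaries. Any neighbour within 10 kb was present for 1602 of the 1755 and for 5725 of the 7935. Both shares therefore also count boundaries without a close neighbour. The close neighbour had the same role alone for 69 off-grid and 523 on-grid boundaries. Boundaries beside one of the opposite role alone, or themselves both a start and an end, made up 83.8% of all off-grid and 74.7% of all on-grid boundaries. These shares leave out 118 off-grid and 841 on-grid boundaries of a single role whose neighbour was both a start and an end. Of the 1725 off-grid boundaries with a neighbour within 10 kb, that neighbour was a bin centre for 833, a multiple of 10 kb for 557 and another off-grid coordinate for 335.

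**Figure D4:**
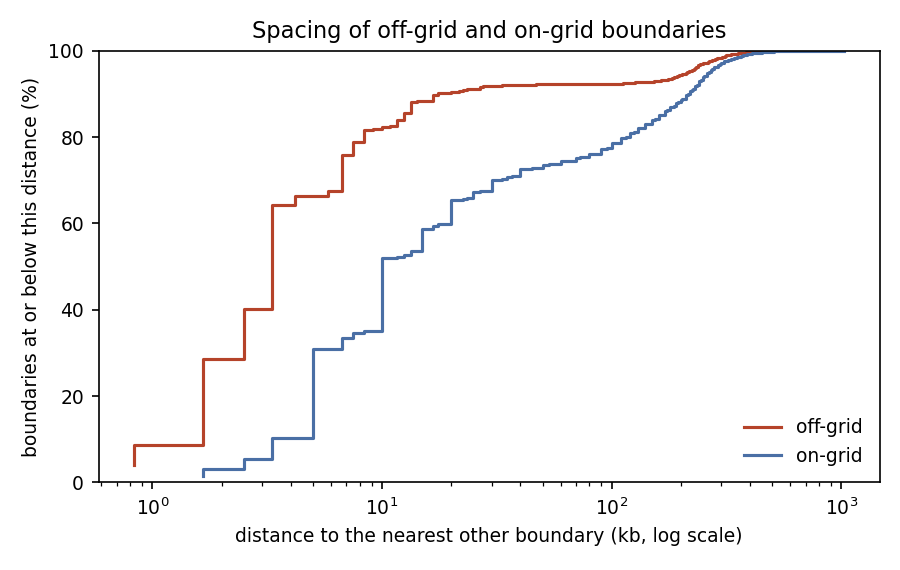
Cumulative share of boundaries, in percent, against the distance to the nearest other boundary in kb on a log axis, for off-grid and on-grid boundaries on the autosomes. The off-grid curve has passed 82.4% at 10 kb, where the on-grid curve has reached 51.9%.

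The near anchors were compared within classes of spacing, role and use, since these differed between the groups. Among boundaries with another boundary within 5 kb, 63.6% of off-grid and 53.2% of on-grid boundaries had a near anchor. Among those with none within 50 kb the shares were 64.8% (162 boundaries) and 28.6% (3727 boundaries). By role, the shares were 60.05% and 45.0% for starts, 60.3% and 43.2% for ends, and 65.5% and 33.0% for boundaries that were both. By use, the shares were 60.1% and 43.6% for boundaries used by 1 domain, and 65.5% and 32.5% for those used by 2. The off-grid share was the higher in each of these classes, and the difference was smallest where another boundary lay within 5 kb. An on-grid boundary under 5 kb from its neighbour lies beside an off-grid one by the rule, so there both groups can share anchors. Such boundaries were 10.4% of the on-grid boundaries, while the class, which includes distances of exactly 5 kb, held 30.9% of them.

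Among classes of domain size, off-grid and on-grid boundaries differed most in near anchors where the domains were smallest. Each boundary was placed by the smallest domain that it bounds. Where that domain was at most 200 kb, 73.7% of 213 off-grid boundaries had a near anchor (95% Wilson interval 67.4 to 79.2%), against 38.3% of on-grid boundaries. Where it was over 600 kb, the shares were 46.5% of 157 off-grid boundaries (38.9 to 54.3%) and 38.4% of on-grid boundaries (36.7 to 40.01%). The on-grid share stayed between 38.3% and 40.2% over the size classes, while the off-grid share was lower in the class of the largest domains than in that of the smallest. Boundaries of domains inside no other domain had near anchors in 58.3% and 42.0% of cases, and those of nested domains in 63.5% and 36.3%.

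Domains with an off-grid end were shorter and seldom held other domains. Their median size was 316.7 kb (95% interval from order statistics 307.5 to 326.7 kb), with quartiles of 246.7 and 426.7 kb, compared with 445 kb (440 to 455 kb) and quartiles of 265 and 770 kb for domains with both ends on-grid. The median was lower on 19 of 19 autosomes. For domains with an end at a multiple of 10 kb and no off-grid end it was 375 kb. Domains over 1 Mb made up 1.66% of the first group and 14.8% of the second, whereas domains under 200 kb made up 8.06% and 10.2%.

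Taken over all sizes, nesting differed in one direction more than in the other. A domain counted as inside another when neither of its ends lay beyond the other's, and shared ends were allowed. No tolerance was given, so an end a few kb outside ended the nesting. Off-grid ends were seldom shared exactly, and how far the rule sets these shares was not tested. Of the domains with an off-grid end, 91.8% (95% Wilson interval 90.3 to 93.0%) held no other domain, compared with 58.1% (57.2 to 59.1%) of the others. The share that held none was higher for domains with an off-grid end on 19 of 19 autosomes. For domains with a quaternary end it was 98.6%, and for those with an end at a multiple of 10 kb and no off-grid end 68.9%. The share that lay inside another domain was 55.8% (53.4 to 58.2%) and 61.8% (60.9 to 62.8%), lower for domains with an off-grid end on 16 of 19 autosomes. Domains that neither held another nor lay inside one made up 38.7% and 12.4%. The contrast between the directions changed with domain size. From 200 to 300 kb, 99.5% and 97.1% held no other, while 65.6% and 81.9% lay inside another. From 600 to 1000 kb, 56.2% and 22.5% held no other, and 32.2% and 47.0% lay inside another. Above 1000 kb, with 27 domains that had an off-grid end, 29.6% and 18.8% lay inside another. Among domains that held no other, the order of the sizes turned, with a median of 303.3 kb for those with an off-grid end and 290 kb for the others.

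A loop at a domain's corner joins its start to its end. It was counted when the midpoint of each anchor lay at most 40 kb from the domain end that it belongs to. Over all autosomal domains, 16% had such a loop. The share was 33.6% of domains with an off-grid end (547 of 1626, 95% Wilson interval 31.4 to 36.0%) and 13.3% of the others (12.7 to 14%). It was higher on 18 of 19 autosomes, and the exception was chromosome 3, with 12.8% of 47 domains against 14.1% of 668. Within 20 kb at both ends the shares were 10.9% and 4.57%, and within 60 kb they were 50.3% and 19.8%. The 20 kb share was higher for domains with an off-grid end on 17 of 19 autosomes. The exceptions there were chromosome 3, with 4.26% against 4.64%, and chromosome 19, with 3.92% against 7.14%.

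Corner loops were also least frequent at bin centres, with multiples of 10 kb between these and both off-grid types. Corner loops within 40 kb were found in 9.79% of domains with both ends at bin centres, 24.7% of those with an end at a multiple of 10 kb and no off-grid end, 33.9% of those with a ternary end and 32.9% of those with a quaternary end. Domains with 1 and with 2 off-grid ends had corner loops in 33.2% and 34.1% of cases, with overlapping intervals.

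The shares of domains with a corner loop also stood apart within each class of domain size. Among domains of 100 to 200 kb a corner loop was found in 47.3% of 131 domains with an off-grid end and 24.2% of 1113 others. From 200 to 300 kb the shares were 39.7% and 21.3%, from 300 to 400 kb 32.2% and 16.4%, and from 400 to 600 kb 24.5% and 10.6%. In the class from 600 to 1000 kb they were 18.2% of 121 domains and 7.28%. Above that only 27 domains had an off-grid end, and 10 of them had a corner loop (37.0%, 95% Wilson interval 21.5 to 55.8%), against 4.35% of the others.

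**Figure D5:**
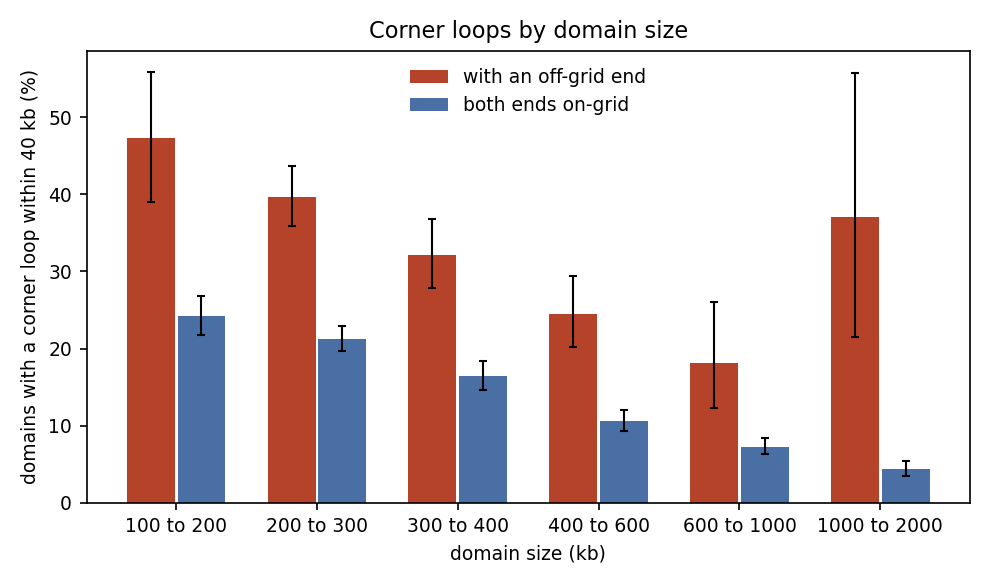
Share of autosomal domains with a corner loop within 40 kb of both ends, in percent, by class of domain size in kb, with 95% Wilson intervals. In each class the bar for domains with an off-grid end is the taller, from 47.3% against 24.2% at 100 to 200 kb to 18.2% against 7.28% at 600 to 1000 kb.

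More loops crossed off-grid boundaries. A loop crossed a boundary when its anchor midpoints lay on opposite sides of it. Off-grid boundaries were crossed by 2.38 loops on average and on-grid boundaries by 1.60, with medians of 2 and 1. The mean for multiples of 10 kb was 2.07. Crossing by no loop was found for 27.4% (95% Wilson interval 25.5 to 29.4%) and 45.6% (44.7 to 46.4%). The mean over autosomes was 2.29 ± 0.445 for off-grid and 1.59 ± 0.298 for on-grid boundaries (SD, n = 19), higher for off-grid boundaries on 18 of 19. The exception was again chromosome 3, with 0.982 against 1.20.

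The number of nearby loops that crossed a boundary went with the number of loops around it. Off-grid boundaries had 6.26 loops with an anchor within 100 kb on average and on-grid boundaries 3.73. Of those loops, 20.1% crossed the off-grid boundary and 20.9% crossed the on-grid boundary. These crossings averaged 1.26 and 0.778 per boundary, against 2.38 and 1.60 for all loops. Crossing loops with both anchors farther away are outside this comparison. The off-grid percentage was the higher on 8 of 19 autosomes, with a difference of -1.14 ± 3.63 percentage points (SD, n = 19), which is smaller than the spread over chromosomes. The groups thus differed in the number of loops nearby, while the percentage of these that crossed differed by less than its spread.

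Chromosomes differed in how many of their boundaries were off-grid. The share was 12.9% ± 2.18 (SD, n = 19), from 6.71% on chromosome 3 through a median of 12.5% to 16.1% on chromosome 11. Across the 19 autosomes it went with the density of loops, with Pearson's r = 0.69 and Spearman's rho = 0.77, as a description over chromosomes of 1 data set. Chromosome 3, with 57 off-grid boundaries, was the lowest of the 19 in the off-grid share, in near anchors at off-grid boundaries and in loops that crossed them. It had 6.64 loops per Mb, whereas chromosome 14 had 6.09 loops per Mb and 11.0% off-grid boundaries.

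Single boundaries were chosen by fixed rules, and the first was the number of distinct anchors within 20 kb. The highest number was 9, at position 79621666 of chromosome 10, a ternary coordinate that opens the 193.3 kb domain chr10:79621667-79815000. Within 20 kb of it 13 loops ended, at 5 left and 4 right anchors. Only 4.17 kb below it, at position 79617500, a quaternary coordinate closes the 207.5 kb domain chr10:79410001-79617500 and has 8 anchors. The pair is an end beside a start, and their 20 kb windows overlap.

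The other boundaries with many anchors stood in varied settings. Position 135367500 of chromosome 5 closes the 177.5 kb domain chr5:135190001-135367500 and had 8 anchors, 7 of them left anchors. Position 17441666 of chromosome 10 also had 8, with 15 loops ending within 20 kb, and it both closes the domain chr10:17168334-17441666 and opens chr10:17441667-17955000. Position 137021666 of chromosome 1 had 7 anchors and opens the 310 kb domain chr1:137021667-137331666. The nearest other boundary lay at most 4.17 kb away from each of these 5 boundaries.

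Position 88341666 of chromosome 17 was the single off-grid boundary used by 3 domains. It closes the 350 kb domain chr17:87991667-88341666 and opens 2 nested domains of 190 and 716.7 kb, chr17:88341667-88531666 and chr17:88341667-89058333. It had 2 anchors nearby, both right anchors, and 5 loops crossed it. The remaining 342 shared off-grid boundaries were used by 2 domains each. The first 4 of them by position lie on chromosome 1 at 9508333, 20898333, 21148333 and 24271666, with 0, 1, 2 and 1 anchors. The middle pair bound the same 250 kb domain, chr1:20898334-21148333, which thus meets a neighbour at an off-grid coordinate at both ends.

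The boundary crossed by the most loops was at position 73922500 of chromosome 8, with 20 loops of a median span of 547.5 kb. It opens the 322.5 kb domain chr8:73922501-74245000 and had 6 anchors nearby. Position 11001666 of chromosome 8 was crossed by 17 loops and lies between the domains chr8:10795001-11001666 and chr8:11001667-11201666. Position 172458333 of chromosome 2 was crossed by 16 loops and had 1 anchor nearby. At these 3 places the median span of the crossing loops was at least 532.5 kb, longer than the domains that the boundaries belong to.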

How the data were processed

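Micro-C contacts of 18 samples, 9 untreated and 9 treated with auxin for 4 h, underlie 2 deposited lists, a loop list and a domain list. Per the labels' protocols, chromatin was digested with micrococcal nuclease and ligated, and dinucleosome-sized DNA was sequenced. The deposited values are coordinates in bp with no other unit, per the files, and the submitters' processing notes name build mm9. The aligner, callers, filters and merging are not given in the sources used here. The number of columns of per-sample values without a sample was 0.

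Measures were computed in Python 3.11.15 (pandas 2.3.3, scipy 1.17.1, numpy 2.4.6), and matplotlib 3.10.9 drew the plots. Shares have 95% Wilson intervals, differences of shares Newcombe intervals and medians order-statistic intervals, all for counting only. No test was run, because no samples stand behind the values. The measures were tested on simulated lists with planted boundaries and anchors. The members, lists and named-region rules were chosen with earlier results of these data known. No gene was named. Regions named were the 5 off-grid boundaries with the most anchors, the 5 used by most domains and the 3 crossed by most loops, ties going to the lower chromosome and position. Alternatives tried were other distances, loop sets, boundary subsets, the X chromosome, a 2.5 kb rule and joined coordinates, and 3 were chosen after seeing the data.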

Additional observations from a re-analysis of the deposited data

How the results depend on the processing

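A value moved where it left the interval of the main value, or 1 SD over autosomes for the mean number of crossing loops. Of 81 values under alternatives, 42 moved. Of 44 pairs, off-grid against on-grid, 42 kept their order. It turned for use by several domains with coordinates joined within 10 kb (92.0% against 76.2%), where loci of 2 or more coordinates are used by several domains by construction. Loci with 1 coordinate kept the order (58.5% against 69.9%). It also turned for size among domains that hold no other (303.3 against 290 kb), and the cause was not tested.

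Values below give off-grid before on-grid, and a lone value is on-grid. A near anchor was found at 41.2% and 26.8% within 10 kb, 81.2% and 52.5% within 40 kb, 88.8% and 58.7% within 60 kb, and 68.8% and 42.6% by the nearest anchor edge. It was found at 58.6% and 37.5% without loops on the 2 kb grid and at 58.3% and 42.0% for domains inside no other. The on-grid share alone moved with X (37.5%), with the 2.5 kb rule (40.04%), for domains that hold no other (38.3%), for starts (37.7%) and for ends (37.0%). It was 31.5% with joined coordinates and 36.6% for bin centres alone, both chosen after seeing the data. The on-grid median distance to an anchor was 40 kb without 2 kb grid loops, 40 kb with X and 47.5 kb for bin centres alone.

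The share of on-grid boundaries used by several domains was 47.1% with the 2.5 kb rule and 52.7% for bin centres alone. Median sizes were 362.5 and 730 kb for domains inside no other, 435 kb with the 2.5 kb rule and 470 kb for bin centres alone, where 63.5% lay inside another domain. Crossing loops averaged 1.75 and 1.24 with both midpoints over 20 kb away, and 1.25 and 0.746 for spans up to 500 kb. Median spacing was 3.334 and 25 kb for domains that hold no other, 6.67 and 100 kb to the next boundary at higher coordinates, and 15 kb for bin centres alone. Leaving out chromosome 3, also chosen after seeing the data, moved neither near anchors nor crossing.

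Intervals cover counting only, since the depth of contacts is unknown and boundaries share anchors. No paired analysis was possible because neither list separates the samples.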

Other observations

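The X chromosome, left out of the comparisons above, had 1202 boundaries, of which 113 (9.40%) were off-grid. These were 87 ternary and 26 quaternary coordinates. An anchor lay within 20 kb of 32.7% of them (37 boundaries, 95% Wilson interval 24.8 to 41.8%) and of 14.6% of the 1089 on-grid boundaries on X (12.6 to 16.8%). Both shares were below the lowest autosomal value of the same group, 38.6% and 28.8%. The median distance to the nearest other boundary was 3.33 kb for off-grid and 15 kb for on-grid boundaries on X.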
